A study of Mus musculus with 69 samples.

Results

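The tumour suppressor p53, encoded by Trp53, was examined together with 9 genes that control it or respond to it: Mdm2, Mdm4, Cdkn1a, Ccng1, Bax, Trp53inp1, Aen, Zmat3 and Sesn2. These 10 genes were chosen by name, as p53 and well-known members of its stress response, with earlier results of these data known. All 10 were found among the 16263 rows of the count table and all 10 were among the 14061 genes expressed highly enough to be tested. The question was whether the p53 targets follow Trp53, which lies on chromosome 11, a chromosome whose genes were higher in both mutant clones.

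The study replaced lysine 27 of histone variant H3.3 with arginine (H3.3K27R), a residue that can no longer be acetylated, and asked what this does to enhancers in mouse embryonic stem cells (ESCs). The values come from mRNA-seq and ATAC-seq, which maps open chromatin, each with 2 libraries of 3 lines. WT was the J1 ESC line of strain 129S4/SvJae, derived from the inner cell mass of a blastocyst and wild type for H3.3, while Mut18 (genotype H3.3K27R #18) and Mut43 (H3.3K27R #43) were J1 clones in which the endogenous alleles of both H3.3 genes, H3f3a and H3f3b, had been edited with CRISPR-Cas9. Each mutant line is a single clone, and the 2 libraries of a line are separate cultures of it. For WT against both clones together, p-values measure the spread between cultures mixed with that between the 2 clones. For single clones they measure the spread between cultures. Neither stands for a wider set of independent edits. All lines were grown on feeder cells and then passaged without feeders before harvest, and no treatment that damages DNA is named in the labels.

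In most cells p53 is made continuously and destroyed continuously: the ubiquitin ligase Mdm2 and its partner Mdm4 bind it, block it and send it to the proteasome. DNA damage and other stresses break this contact, p53 protein accumulates, and it binds response elements in the genome to switch on genes for cell cycle arrest, apoptosis, DNA repair and metabolic adjustment. Mdm2 is itself a p53 target, which closes a feedback loop. Because p53 is controlled mainly as a protein, its mRNA level is an incomplete guide to its activity, and protein was not measured here. ESCs are known for a high level of p53 and for a short G1 phase.

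A p53 response element is built from 2 copies of a 10-letter unit around a CNNG core, either adjoining or a base or more apart. The genome around the 10 genes was searched for this consensus on both strands, with a spacer of 0 or 1 base, at most 2 mismatches and none in the core C and G. A match describes letters and not binding, and the sequences are those of the reference genome (RefSeq, GRCm38, the build also called mm10), not of strain 129S4/SvJae. The sequences shown are among the closest matches near the genes whose levels are described here. Each has flanks and is written 5′ to 3′ along the gene, and capitals mark the match with its spacer.
Cdkn1a: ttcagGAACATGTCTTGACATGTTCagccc
Zmat3: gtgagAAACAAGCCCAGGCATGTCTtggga
Trp53inp1: aggaAAACATGTCCAGGACTAGCCTggac
Ccng1, upstream: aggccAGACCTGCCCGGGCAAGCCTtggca
Ccng1, intron: ccggaACGCAAGCCCGGGCTAGTCTgcgcc
Bax: cccccGGGCAGGCCCGGGCTTGTCGctggc
Mdm4, intron: agatgGAACATGTCCAAACCTGTCTctctt

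The Cdkn1a sequence, on the plus strand at chr17:29090923-29090952, lay 42 bp upstream of the nearest annotated start site and had 1 mismatch. The Zmat3 sequence, on the minus strand at chr3:32364326-32364355, and the Trp53inp1 sequence, on the plus strand at chr4:11155108-11155136, had 0 mismatches. They lay 1338 bp downstream of the first start site of Zmat3, in an untranslated or noncoding exon, and 1310 bp upstream of that of Trp53inp1. Start sites here are those of annotated protein-coding transcripts. Both Ccng1 sequences, on the minus strand at chr11:40755457-40755486 and chr11:40754931-40754960, had 1 mismatch, whereas the Bax sequence, on the minus strand at chr7:45466569-45466598 in an untranslated or noncoding exon, had 2. The Mdm4 sequence, on the minus strand at chr1:133019436-133019465, lay in an intron and had 1 mismatch. Within 5 kb of the first start site, 7 of the 10 genes held at least 1 match, and so did 24.9% of 13937 tested genes with a place in the annotation. The 10 genes were chosen as p53 genes, so this share is a property of the choice. Mdm2, Aen and Sesn2 held no match within 5 kb. The search passes over sites with a longer spacer or a changed core, so this does not show that they lack a response element.

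The 6 mRNA-seq libraries were of nearly equal depth, from 14992756 to 15143998 counts, so that depth gives the lines about the same precision. Levels below are normalized counts (counts scaled by edgeR's TMM library factors). Log2 fold changes are mutants (n = 4) minus WT (n = 2) from the quasi-likelihood test of edgeR, p-values were adjusted over all tested genes after Benjamini and Hochberg, and a gene was called at an adjusted p under 0.05. The 12 ESC markers examined were all well expressed, from 60642 to 62699 normalized counts in sum in WT and from 70194 to 73954 in the mutants, and 11 of them were higher in the mutants while Pou5f1 was lower. Fibroblast markers summed to 5118 and 3841 in the 2 WT libraries and to 2301 to 2993 in the mutants, with 9 of the 11 tested lower and 0 higher. Primitive endoderm markers summed to 1523 to 2351 in WT and 1231 to 1347 in the mutants, with 3 of the 7 tested lower and 1 higher. Col1a1 had the highest counts of the fibroblast markers. Most of the endoderm sum came from Col4a1, at 1936 and 1161 in WT and 1009 to 1093 in the mutants. Col4a1, Dab2 and Foxa2 were the lower endoderm markers, Gata4 was higher, and Gata6, Sox7 and Pdgfra were not called. Under 10 normalized counts in every library were 0 of the fibroblast markers and 1 of the endoderm markers, Sox17. These marker sums moved with the comparison between WT and mutants, and their part in the results that follow was not tested. In bulk RNA, fewer cells of a type and less RNA per cell cannot be told apart.

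Of the 10 p53 genes, 3 were higher in the mutants (Trp53, Mdm4 and Sesn2), 3 were lower (Cdkn1a, Aen and Zmat3) and 4 were not called (Mdm2, Ccng1, Bax and Trp53inp1). Without WT replicate 1 the count lower was 1, Cdkn1a, and the count higher was 2, Trp53 and Mdm4. Among all tested genes, 23.5% were called higher and 24.5% lower, 48% in all, so the 3 and 3 called among the 10 lay near the background. No member changed by over 2-fold, where 8.93% of all tested genes were called with such a change, and the 95% confidence interval of all 10 genes lay within 2-fold. The median log2 fold change of the 10 was -0.06, beside -0.004 for all tested genes. In 6 of the 10, all mutant libraries lay on the same side of both WT libraries, 3 above and 3 below. Among all tested genes 59.8% were apart in this way, 29.4% above and 30.4% below.

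**Figure D1:**
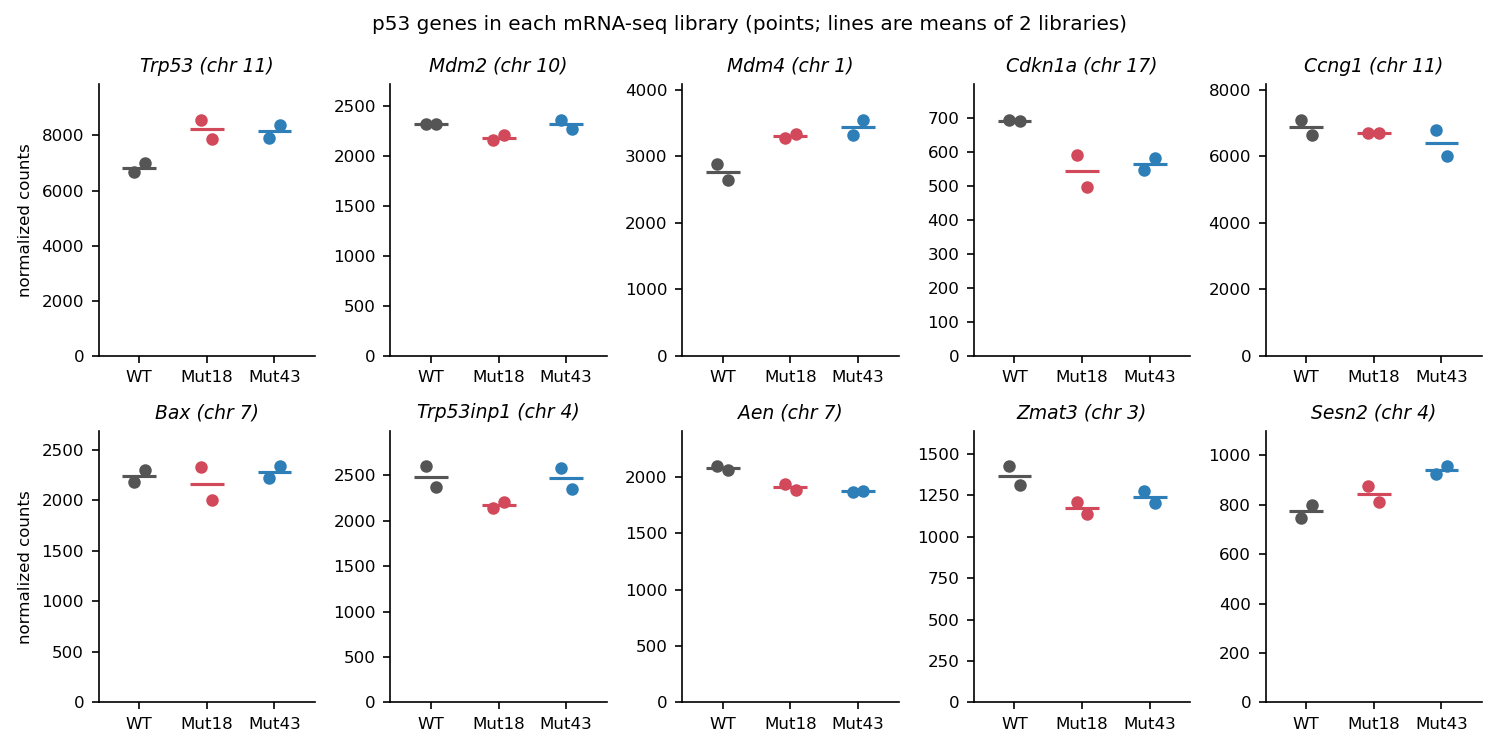
Normalized counts (y axes, from 0, each panel on its own scale) of the 10 p53 genes in the 2 WT, 2 Mut18 and 2 Mut43 libraries. Points are libraries and lines are means of 2 libraries. Trp53, Mdm4 and Sesn2 lie higher in all 4 mutant libraries than in both WT libraries, and Cdkn1a, Aen and Zmat3 lie lower.

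Trp53 itself, on the plus strand at chr11:69580359-69591873, was measured at 6668 and 6992 normalized counts in WT, against 8562 and 7885 for Mut18 and 7912 and 8390 for Mut43. The groups did not overlap, and the lowest mutant library stood above the highest WT library. The log2 fold change was 0.26 (SE 0.042, 95% confidence interval 0.17 to 0.35, adjusted p = 3.09e-05 in edgeR), a rise of 19.9%. It was nearly the same in both clones, 0.27 in Mut18 and 0.26 in Mut43. A processed pseudogene of Trp53 on chromosome 17 has no row of its own, so reads shared with it could not be separated.

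Trp53 was raised by less than most of its chromosome. The median log2 fold change of the 1182 tested genes of chromosome 11 was 0.39, and 67% of them were called higher and 7.11% lower, whereas the medians of the other autosomes ranged from -0.08 to 0.07. The confidence interval of Trp53 ended below the median of the chromosome, and Trp53 stood at percentile 33.6 of chromosome 11 genes. Of the 13 tested genes within 100 kb of Trp53, 11 were called higher and 0 lower, with a median of 0.51, and 12 of the 13 had a log2 fold change above that of Trp53. Wrap53, which starts beside Trp53 on the opposite strand and encodes a telomerase and Cajal body protein, had a log2 fold change of 0.49 (SE 0.076, adjusted p = 1.74e-05 in edgeR). The translation initiation helicase gene Eif4a1, which had the highest counts of the neighbourhood, had one of 0.43 (SE 0.034), Senp3, a SUMO protease gene, 0.49, and Atp1b2, a sodium pump subunit gene, 1.24. Among the neighbours, Sat2 at 0.19 and Tnfsf13 at 0.48 were not called, both at low counts.

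Ccng1, the other chromosome 11 gene among the 10, encodes cyclin G1, which recruits a phosphatase to Mdm2 and is a well-known p53 target. The gene lies on the minus strand at chr11:40748552-40755311. It was measured at 7090 and 6639 normalized counts in WT, against 6687 and 6710 for Mut18 and 6794 and 6016 for Mut43. These values overlapped, with the second Mut43 library standing alone at the low end. The log2 fold change was -0.07 (SE 0.046, 95% confidence interval -0.16 to 0.03, adjusted p = 0.243 in edgeR), which placed it 0.45 below the chromosome 11 median and at percentile 14.2 of the chromosome. The 3 tested genes within 100 kb of Ccng1, examined after its value was seen, were all called higher, Hmmr by 0.45, Nudcd2 by 0.29 and Mat2b by 0.28 on the log2 scale.

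**Figure D2:**
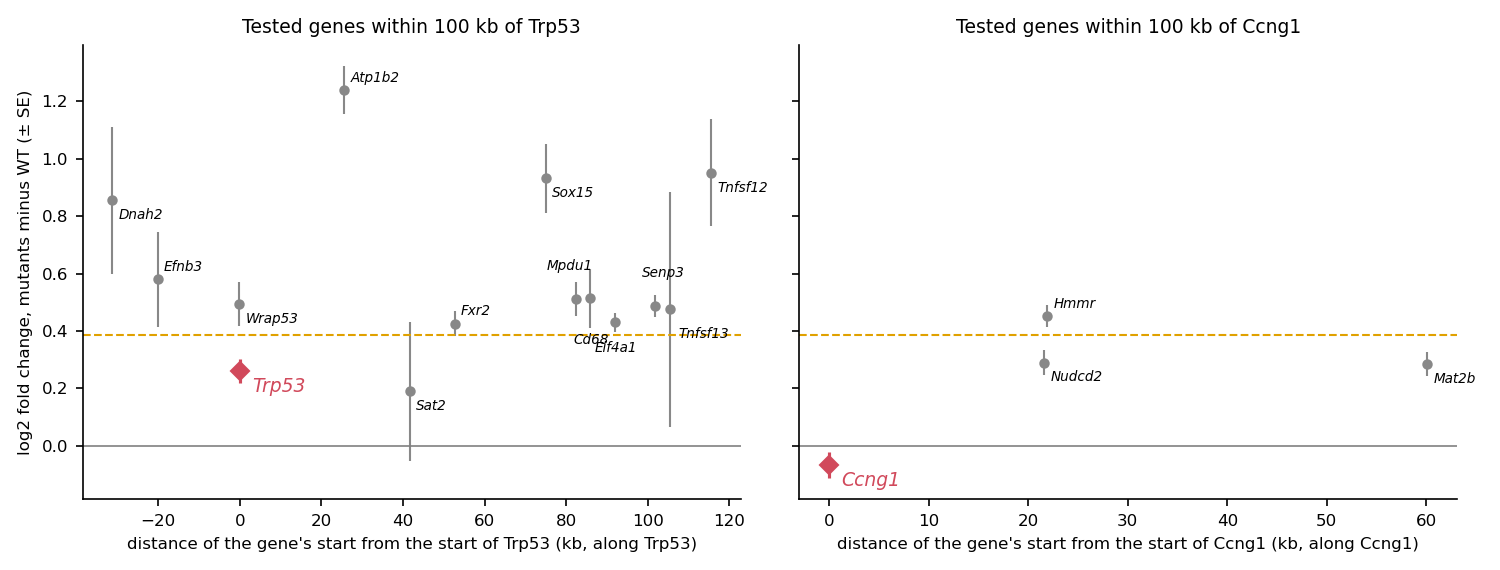
Log2 fold change, mutants minus WT with its SE, of tested genes within 100 kb of Trp53 (left) and Ccng1 (right), against the distance of each gene's start from the start of Trp53 or Ccng1 in kb. Diamonds mark Trp53 at 0.26 and Ccng1 at -0.07, circles their neighbours, and the dashed line the chromosome 11 median of 0.39. Of the neighbours, 12 of 13 at Trp53 and all 3 at Ccng1 lie above the gene they surround.

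Genes were set side by side as CPM (counts scaled to a common library total) per kb of exon. The length was that of all annotated exons of a gene merged, 4045 bp for Trp53, 3512 bp for Ccng1 and 14798 bp for Mdm4. A transcript in use can be shorter, so the order of the genes depends on this choice. On this scale Ccng1 was the most abundant of the 10 in WT at 130 ± 6.03 (SD, n = 2). Trp53 at 112 ± 3.76 and Bax at 94.5 ± 3.66 followed. The mean WT counts of Ccng1 and Trp53 were close, 6865 and 6830. In the mutants Trp53 came first at 134 ± 5.59 (SD, n = 4) and Ccng1 second at 124 ± 6.81. The ratio of Trp53 to Ccng1 counts was 0.940 and 1.05 in the WT libraries and 1.16 to 1.39 in the mutant libraries, with no overlap. The other genes were lower, from Mdm2 at 30.3 ± 0.019 down to Zmat3 at 7.93 ± 0.46 in WT. Neighbours in this order that did not differ beyond their spread were Trp53inp1 and Aen (25.5 ± 1.65 and 23.8 ± 0.28), and Cdkn1a and Mdm4 (12.9 ± 0.055 and 12.4 ± 0.78).

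Of the negative regulators of p53, Mdm4 was called higher and Mdm2 was not called. Mdm2, the ligase that is also a feedback target (minus strand, chr10:117688875-117710758), was measured at 2320 and 2322 normalized counts in WT, against 2156 and 2213 for Mut18 and 2362 and 2271 for Mut43. The groups overlapped, and the log2 fold change of -0.04 (SE 0.044, 95% confidence interval -0.14 to 0.05, adjusted p = 0.423 in edgeR) was not called. Mdm4, on the minus strand at chr1:132959484-133030561, encodes the partner that silences the transactivation domain of p53 without being much of a ligase itself. Its levels were 2887 and 2640 in WT, against 3275 and 3339 for Mut18 and 3323 and 3546 for Mut43, and all mutant libraries stood above both WT libraries. The log2 fold change of 0.29 (SE 0.046, 95% confidence interval 0.19 to 0.38, adjusted p = 3.01e-05 in edgeR) corresponded to 1.22-fold, on a chromosome with a median of -0.08. Mdm4 has a processed pseudogene on chromosome X with no row of its own.

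Cdkn1a, which encodes the cyclin-dependent kinase inhibitor p21 and is the classical p53 target for arrest in G1, was lower in the mutants. The gene lies on the plus strand at chr17:29090976-29100727. It was measured at 695 and 691 normalized counts in WT, against 592 and 497 for Mut18 and 546 and 583 for Mut43. All 4 mutant libraries stood below both WT libraries. The log2 fold change was -0.32 (SE 0.069, 95% confidence interval -0.47 to -0.18, adjusted p = 0.000663 in edgeR), or 0.800-fold, and it was -0.35 in Mut18 and -0.29 in Mut43. An annotated transcript on the opposite strand overlaps 273 bp of Cdkn1a exons and has no row of its own, and whether counting used the strand is not given in the sources used here.

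Of the 3 apoptosis targets, Aen was called lower, and Bax and Trp53inp1 were not called. Bax, whose product opens the outer mitochondrial membrane (minus strand, chr7:45461697-45466898), was measured at 2183 and 2306 normalized counts in WT, against 2329 and 2007 for Mut18 and 2223 and 2338 for Mut43. The mutant libraries lay on either side of the WT libraries, with a log2 fold change of -0.01 (SE 0.053, 95% confidence interval -0.12 to 0.10, adjusted p = 0.858 in edgeR) whose sign changed under other settings. Gm45808, an annotated gene on the same strand, shares 192 bp of exon with Bax and has no row of its own.

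Trp53inp1, on the plus strand at chr4:11156431-11174379, encodes a nuclear body and autophagy protein that promotes p53 phosphorylation. Its levels were 2597 and 2370 in WT, against 2140 and 2208 for Mut18 and 2579 and 2352 for Mut43, so that Mut18 stood below WT while Mut43 overlapped it. The log2 fold change over both clones was -0.10 (SE 0.059, adjusted p = 0.176 in edgeR), and it was called without Mut43 replicate 1 (-0.15, adjusted p = 0.0242). Aen, a nuclease gene that p53 induces during apoptosis (plus strand, chr7:78895854-78911209), was measured at 2095 and 2061 in WT, against 1943 and 1889 for Mut18 and 1871 and 1878 for Mut43. All mutant libraries were lower, and the log2 fold change was -0.13 (SE 0.041, adjusted p = 0.0111 in edgeR). This call was lost without WT replicate 1 (-0.12, adjusted p = 0.113) and without WT replicate 2 (-0.14, adjusted p = 0.0575), while the log2 fold change stayed about as large.

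Zmat3 and Sesn2 were grouped as RNA-binding and stress-metabolism targets. Zmat3, on the minus strand at chr3:32334792-32366014, encodes an RNA-binding zinc finger protein that controls splicing and mRNA stability. It was measured at 1423 and 1310 normalized counts in WT, against 1208 and 1138 for Mut18 and 1274 and 1204 for Mut43, lower in all mutant libraries, with a log2 fold change of -0.18 (SE 0.051, adjusted p = 0.00593 in edgeR). Sesn2, on the minus strand at chr4:132492032-132510501, encodes a leucine sensor that restrains mTORC1 and is induced by p53 and also by ATF4. Its levels were 746 and 801 in WT, against 875 and 813 for Mut18 and 926 and 956 for Mut43, higher in all mutant libraries, with a log2 fold change of 0.21 (SE 0.064, adjusted p = 0.0109 in edgeR). Without WT replicate 1 neither call held: the log2 fold change was -0.12 (adjusted p = 0.169) for Zmat3 and 0.16 (adjusted p = 0.114) for Sesn2.

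**Figure D3:**
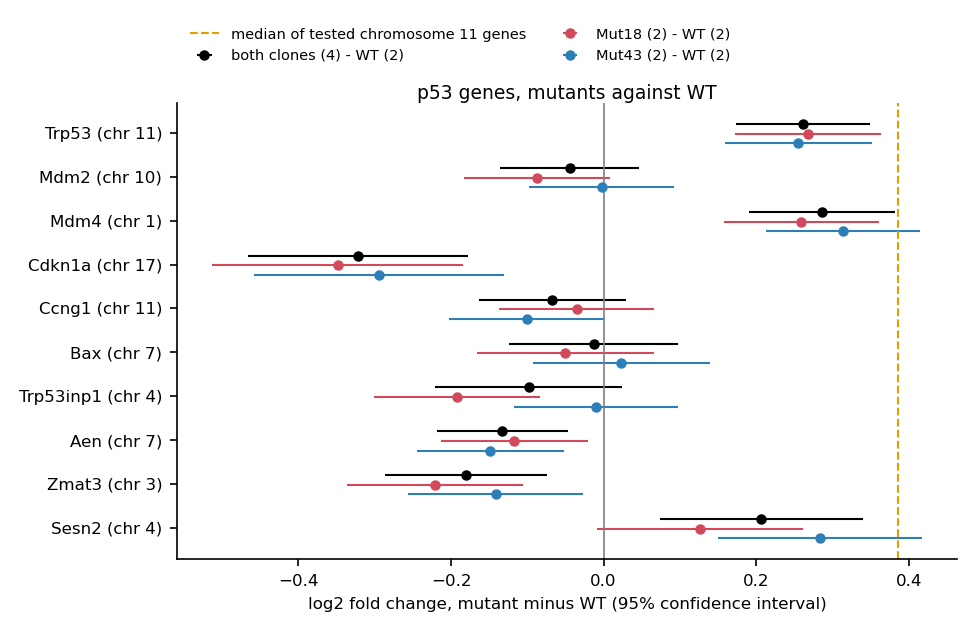
Log2 fold change with its 95% confidence interval (x axis) of the 10 p53 genes, for both clones against WT (black), Mut18 against WT (red) and Mut43 against WT (blue), with the number of libraries in brackets. The dashed line is the chromosome 11 median of 0.39. The interval of Trp53 lies above 0 and below the dashed line, that of Ccng1 spans 0, and that of Cdkn1a lies below 0.

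By clone, 2 of the 10 genes were called higher and 4 lower in Mut18, where the background was 20.3% and 21% (41.3% in all), and 3 were called higher and 3 lower in Mut43, where it was 22.9% and 23.9% (46.8% in all). The calls differed in Trp53inp1, with a log2 fold change of -0.19 (adjusted p = 0.00468 in edgeR) in Mut18 and -0.01 (adjusted p = 0.887) in Mut43, and in Sesn2, with 0.13 (adjusted p = 0.128) and 0.28 (adjusted p = 0.000811). When the clones were tested against each other, 0 of the 10 genes were called by edgeR and 2 had an unadjusted p under 0.05, these same genes. The clones differed by 0.18 (SE 0.053, adjusted p = 0.204) for Trp53inp1 and by 0.16 (SE 0.065, adjusted p = 0.466) for Sesn2, both higher in Mut43. Over all tested genes, 0.327% were called between the clones, 0.064% higher and 0.263% lower in Mut43. The 2 clone comparisons share the WT libraries.

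The wider p53 programme was followed in 40 other direct targets, of which 39 were in the table and tested and Casp1 was not analysed here. Of these, 21 (53.8%) were lower in the mutants, 7 (17.9%) were higher and 11 were not called, with a median log2 fold change of -0.26 beside -0.004 for all tested genes and a background of 24.5% lower and 23.5% higher. Off chromosome 11, 20 were lower and 6 higher among 36, with a median of -0.28, beside a median of -0.03 and a background of 26.1% lower and 19.5% higher for all tested genes off that chromosome. By edgeR's adjusted p, 0 of the 39 targets differed between the clones, beside 0.327% of all tested genes. The 21 lower genes fell by between 0.23 and 0.83 on the log2 scale. The list is described by counts and was not tested as a set. It was chosen with earlier results of these data known, so these shares are no independent check.

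The lower targets with the largest changes act in different processes. Pmaip1, which encodes the BH3-only protein Noxa, was measured at 448 and 477 normalized counts in WT and at 269, 268, 263 and 240 in the mutants, a log2 fold change of -0.83 (SE 0.075, adjusted p = 1.75e-08 in edgeR). Plk2, a polo-like kinase gene, stood at 1185 and 1102 in WT and at 733, 720, 747 and 615 in the mutants, with -0.70 (SE 0.065). Gadd45a, a DNA damage and growth arrest gene, stood at 612 and 586 in WT and at 367, 371, 402 and 339 in the mutants, also with -0.70 (SE 0.073). In all 3 genes the groups did not overlap, as in all 21 lower targets. Among all tested genes, 30.4% had all mutant libraries below both WT libraries. Sfn, which encodes 14-3-3 sigma and holds cells in G2, had -0.62, and Tap1, a peptide transporter gene of antigen presentation, had -0.71 at fewer than 100 counts.

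The targets that were higher formed a mixed group. Ephx1, an epoxide hydrolase gene, was measured at 137 and 128 normalized counts in WT and at 243, 206, 264 and 217 in the mutants, with a log2 fold change of 0.81 (SE 0.11, adjusted p = 5.18e-06 in edgeR). Sesn1, a relative of Sesn2, had 0.48, the phosphatase gene Ptp4a3 0.42, Ei24, an endoplasmic reticulum protein gene, 0.36, and Ppm1d 0.31. Ppm1d encodes the phosphatase Wip1, which switches p53 off, and lies on chromosome 11. Gdf15, a secreted stress factor gene, was the only target of this list to change by over 2-fold, with 1.52 (SE 0.36, adjusted p = 0.00159), at 6.83 and 7.84 normalized counts in WT and 16.0 to 24.4 in the mutants.

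The fibroblast marker sum was 3841 to 5118 normalized counts in WT and 2301 to 2993 in the mutants, and the endoderm sum 1523 to 2351 and 1231 to 1347. Both sums moved in the same direction as the lower targets, and their part in these was not tested. The endoderm sum was mostly Col4a1, and the endoderm markers did not fall together.

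**Figure D4:**
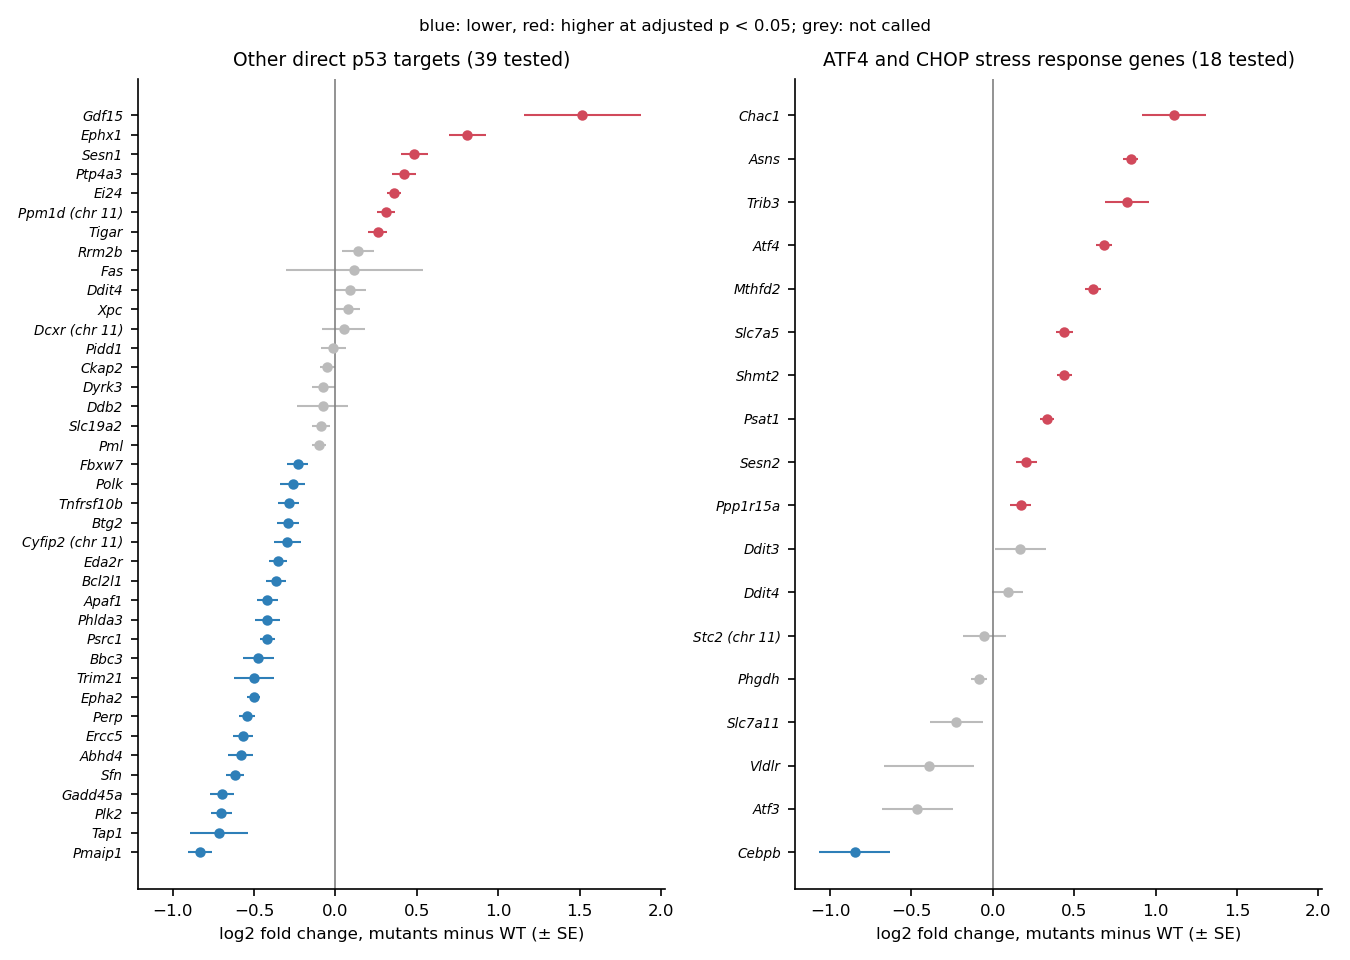
Log2 fold change, mutants minus WT with its SE (x axes), of 39 other direct p53 targets (left) and 18 genes of the ATF4 and CHOP stress response (right), 1 gene a line. Blue points were called lower, red points higher and grey points not called at an adjusted p under 0.05. On the left 21 points are blue and 7 red, and on the right 1 is blue and 10 are red.

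Genes that control p53 were examined next. Of 32 regulators and cofactors, 31 were tested (Trp63 was not analysed here), 8 were higher and 4 lower, with a median log2 fold change of 0.06. These are 25.8% higher and 12.9% lower, beside 23.5% and 24.5% of all tested genes, so the share that was higher lay near the background. Setd7, a lysine methyltransferase gene whose product can methylate p53, fell the furthest, from 884 and 835 normalized counts in WT to 426, 461, 361 and 417 in the mutants, by 1.05 on the log2 scale (SE 0.074, adjusted p = 4.81e-10 in edgeR). Cdkn2a, the locus of Arf, which blocks Mdm2, and of p16, stood at 91.8 and 84.3 in WT and at 141 to 175 in the mutants, with 0.81 (SE 0.13, adjusted p = 2.55e-05). Counts per gene do not separate these 2 products. The damage kinase gene Atr had 0.26 and the kinase gene Hipk2, whose product phosphorylates p53, 0.29. The nucleolar protein gene Npm1, on chromosome 11, had 0.44. Lower genes were Ppp1r13l, an inhibitor of p53, at -0.40, and the ubiquitin ligase genes Trim24 at -0.21 and Cop1 at -0.19.

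Downstream of p21, p53 represses cell cycle genes through the DREAM complex. Of 24 such genes, 4 were higher, 4 lower and 16 not called, with a median of 0.001. The 16.7% in each direction lay below the 23.5% higher and 24.5% lower of all tested genes. The higher genes were Top2a (0.55) and Birc5 (0.40), both on chromosome 11, Mcm5 (0.25) and Ccnb2 (0.13). The lower genes were Cdc20 and Foxm1 (both -0.23), Mki67 (-0.21) and Ccna2 (-0.14).

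Sesn2 also belongs to the ATF4 and CHOP branch of the stress response, which reacts to amino acid shortage and misfolded protein. Of the 18 genes listed for this branch, 10 were higher, 1 (Cebpb) was lower and 7 were not called, with a median log2 fold change of 0.19. This is 55.6% higher and 5.56% lower, beside 23.5% and 24.5% of all tested genes. The list was not tested as a set. It too was chosen with earlier results of these data known, so these shares are no independent check. Atf4 itself was measured at 1258 and 1322 normalized counts in WT and at 1931, 2048, 2108 and 2198 in the mutants, with 0.68 (SE 0.051, adjusted p = 1.26e-09 in edgeR). Asns, the asparagine synthetase gene, had 0.85 (SE 0.045), Trib3, a pseudokinase gene, 0.82 (SE 0.13), Mthfd2, a mitochondrial folate enzyme gene, 0.62 (SE 0.049), and Chac1, a glutathione-degrading enzyme gene, 1.11 (SE 0.20), the only one of these over 2-fold. The gene of CHOP, Ddit3, was not called at 0.17 (SE 0.16). Sesn2 and Ddit4 stand in this list and in that of the p53 genes or targets.

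Across the 6 libraries, the genes most like Trp53 in log2 level among 11075 compared were Mtf1 (Pearson r 0.999), Snd1 (0.998), Cotl1 (0.996), Hgs (0.996) and Nprl2 (0.996). Those most like Cdkn1a were Mpc2 (0.992), Ttc12 (0.989), Kctd11 (0.988), Ehbp1l1 (0.988) and Tinagl1 (0.986). Among the 10, Trp53 was most like Mdm4 (0.85) and Sesn2 (0.83) and most unlike Aen (-0.85), and its r with Cdkn1a was -0.69. The 6 points share 3 lines and the step between WT and mutants, so these values are a description only.

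At the chromatin level, all 10 genes had an ATAC-seq peak within 1000 bp of a start site in all 6 libraries, as did 86.6% of 13937 tested genes. The lists give each peak a fold enrichment over the local background, set by the authors' peak caller, and no read numbers, so depth is unknown and the values are described without a test. The first WT library had the most peaks (78536) and the lowest median fold enrichment, 6.86. That median was 7.80 in the second WT library and 7.46 to 7.65 in the mutant libraries, and the values below were not adjusted for this. Trp53 had 2 peaks in this window, and they differed in how the groups lay. At the peak with its summit at -23 bp from the start site the fold enrichment was 4.33 and 5.09 in WT, against 4.39 and 4.58 for Mut18 and 4.26 and 4.71 for Mut43, so the groups overlapped. At the peak at -1064 bp, which lies within the neighbouring gene Wrap53, it was 4.60 and 4.97 in WT. It was 5.65 and 5.39 for Mut18 and 5.44 and 5.71 for Mut43, higher in all mutant libraries. At the Ccng1 promoter, in the peak at -31 bp, it was 10.4 and 10.8 in WT, against 11.4 and 11.4 for Mut18 and 11.2 and 12.0 for Mut43. All mutant libraries were higher there. When the highest value of any peak in the window was taken for each library, Trp53, Ccng1 and Zmat3 were higher in all mutant libraries and the other 7 genes overlapped, but for Trp53 and Zmat3 this value came from different peaks in different libraries. Ranked among the peaks of its own library, Zmat3 overlapped, at percentile 36.1 and 19.7 in WT and 26.5 in the first Mut43 library. By this rank Trp53 and Ccng1 were still higher in all mutant libraries. Of the 2 Zmat3 peaks, the groups overlapped at the peak at -150 bp (5.36 and 4.67 in WT and 5.16 to 6.95 in the mutants). At the Zmat3 peak at 220 bp all mutant libraries were higher (5.98 and 5.78 in WT and 6.04 to 6.93 in the mutants). By the highest value, 18.1% of 12073 tested genes with a peak in every library were higher in all mutant libraries and 3.86% lower, and on chromosome 11 7.91% were higher. The Cdkn1a peak in this window lay in an intron, at chr17:29093540-29094166. It stood at another annotated start site than the one beside the Cdkn1a sequence printed above. Its values were 6.08 and 8.02 in WT and 6.61 to 7.26 in the mutants, which lay between the WT libraries.

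**Figure D5:**
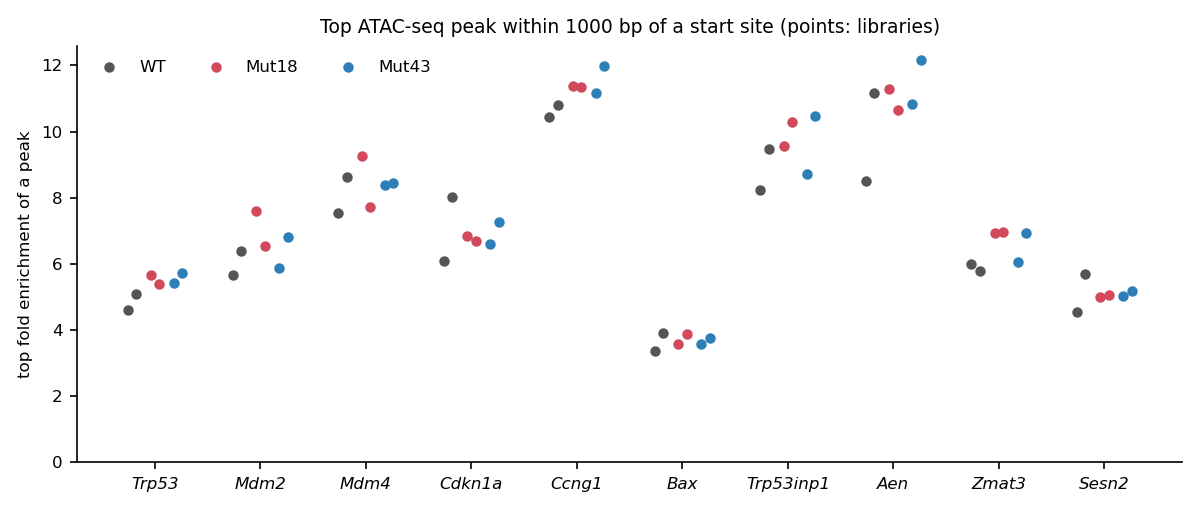
Top fold enrichment (y axis, from 0) of an ATAC-seq peak within 1000 bp of a start site of each of the 10 p53 genes, with 2 points each for WT (grey), Mut18 (red) and Mut43 (blue). Points are libraries. The mutant points lie above both WT points at Trp53, Ccng1 and Zmat3 and overlap them at the other 7 genes. The points of Trp53 and of Zmat3 come from different peaks in different libraries, and at the Trp53 start site peak alone WT (4.33 and 5.09) and mutants (4.26 to 4.71) overlap. All mutant points of Trp53 come from the peak at -1064 bp, within Wrap53.

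Within 10 kb of the 10 genes there were 41 open regions, and 28 of them (68.3%) carried a peak in all 6 libraries, beside 54.7% of all 89596 regions. Both Ccng1 sequences printed above and the Bax sequence lay in regions with a peak in all 6 libraries. Another Bax match, upstream of the start site at chr7:45467075-45467103, also had 2 mismatches and lay in no listed peak. The closest matches to the p53 consensus at Cdkn1a, Zmat3 and Trp53inp1 lay in no listed peak of any library. A pair of regions lay in an intron of Mdm4, at chr1:133019434-133019600 and chr1:133020258-133020486. Each carried a listed peak in the 2 WT libraries but in 1 of the 4 mutant libraries. This was the second Mut43 library for the first region and the first Mut43 library for the second. Of all regions, 6.0% had a peak in both WT and at most 1 mutant library. Their fold enrichment was low, 3.89 and 4.56 in WT and 4.75 in the mutant library for the first region, and 4.32 and 4.06 in WT and 4.88 in the mutant library for the second. Both held matches to the p53 consensus, and the Mdm4 sequence printed above lies in the first. Over all open regions, 1.02% of 300-bp windows around the summit held such a match, and 4 of the 41 windows near the 10 genes did. The RefSeq promoter table held 11 promoters of 8 of the 10 genes. Of these promoters, 3 (Bax, Ccng1 and Cdkn1a) held a match, beside 0.682% of 32851 promoters. The Bax match there was the upstream one, in no listed peak.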

How the data were processed

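The 10 genes and all gene lists were chosen with earlier results of these data known. The mRNA-seq values are raw counts per gene as the authors deposited them, in whole numbers, for 2 libraries each of WT, Mut18 and Mut43, and all 6 columns were matched to samples by title. Paired reads were mapped to mm10 combined with a Drosophila genome. The submitters' processing notes name STAR, SAMtools and DESeq2, without roles, and the counting program and gene annotation are not given in the sources used here. For ATAC-seq the authors deposited the MACS2 peaks of each library separately, with fold enrichment (a ratio to background) and -log10 p and q. The deposited -log10 q values served only for a stricter peak threshold. The ChIP-seq samples were not used here.

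Counts were filtered with edgeR 4.0.16 in R 4.3.3 (filterByExpr at a count of 10 and a total of 15), scaled with TMM factors and compared with the quasi-likelihood test, WT (n = 2) against mutants (n = 4), or with 3 groups for the clones. Adjusted p is Benjamini-Hochberg over 14061 genes, and the threshold was 0.05. Of the 16263 symbols, 15618 were placed by symbol and 478 by an older symbol in GENCODE (GRCm38). The procedure was tested on simulated data. All 10 genes were named, with the tested genes within 100 kb of Trp53, and from each list the called genes averaging 50 normalized counts or more, up to 5 in each direction, plus any with a change over 2-fold. Correlations used genes above the same level. Alternatives were DESeq2 1.42.0, other scalings and filters, a replicate block, single clones and leaving out each library. Replicate numbers did not pair libraries, since the deviations of same-numbered libraries correlated at -0.01 to 0.03. Intervals are 95% and cover the spread between libraries.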

Additional observations from a re-analysis of the deposited data

Results flagged for a closer look

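Among the 10 p53 genes, 1 had a mutant library that stood apart from the other 3. For Ccng1 the second Mut43 library lay at 6016 normalized counts, while the other mutant libraries lay at 6687, 6710 and 6794, and its gap to the nearest of them was 0.863 of the whole range, above Dixon's 95% limit for 4 values. Chance flags about 1 in 20 such groups. Without that library, as under the other alternatives, Ccng1 was not called.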

How the results depend on the processing

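Trp53, Mdm4, Cdkn1a, Mdm2 and Ccng1 kept their direction and their side of the threshold under all 14 alternatives, with log2 fold changes from 0.23 to 0.30 for Trp53, 0.23 to 0.36 for Mdm4 and -0.35 to -0.27 for Cdkn1a. Bax, never called, changed sign with TMM factors set without chromosome 11 genes (0.012), in Mut43 alone (0.023), and without WT replicate 2 or Mut18 replicate 2 (both 0.034, in a range of -0.049 to 0.034 over libraries left out). Leaving out 1 library gave 2 to 3 of the 10 genes called higher and 1 to 4 called lower, with 1 lower without WT replicate 1. Trp53inp1 was called without Mut43 replicate 1 (-0.15, adjusted p = 0.0242 in edgeR) and in Mut18 alone, and Sesn2 was not called in Mut18 alone. Over all genes, leaving out 1 library gave 2580 to 3244 called higher and 2626 to 3404 lower, and asking also for a 2-fold change gave 461 and 794. The chromosome 11 median was 0.37 with upper quartile factors, 0.41 with TMM factors set without that chromosome, and 0.37 to 0.40 without 1 library. With the replicate number as a block, 3221 genes were called higher and 3383 lower, Trp53 had 0.26, and no call among the 10 changed; the numbers did not pair the samples. The lower other targets numbered 19 to 22 over the alternatives. With 2 WT libraries, the call for Aen rested on both, and those for Zmat3 and Sesn2 on WT replicate 1. Promoter peaks in all 6 libraries were found at 9 to 10 of the 10 genes.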
